A study of Mus musculus with 24 samples.

Results

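The comparison described here was between microglia of APP/PS1 mice at 6 and at 4 months of age, 8 libraries of the 24 in the series. Members were chosen by their labels alone: hippocampal microglia of the transgenic genotype (APP/PS1, tg) at 4 months (4 libraries) and at 6 months (4 libraries). All animals were male. Cells were sorted by flow cytometry as DRAQ5-positive, propidium iodide-negative, with high CD11b, intermediate CD45 and no CD49d, and their RNA was sequenced in bulk. Control animals (wt) of the same ages, 4 libraries each, went through the same sort and served here to compare the age change between genotypes. Nothing in the labels ties a library to an animal, so the p-values below reflect variation among libraries that could be technical. In bulk RNA a lower level of a gene cannot be told apart from fewer cells of the type that makes it.

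APP/PS1 mice carry transgenes under the mouse prion protein promoter, among them a mutant amyloid precursor protein, and deposit amyloid in hippocampus and cortex as they age. Microglia are the resident macrophages of the brain. In the healthy state they express a homeostatic set of genes that includes the purinergic receptor gene P2ry12, the fractalkine receptor gene Cx3cr1 and Tmem119. Near amyloid plaques they take on a state termed disease-associated microglia (DAM), described in a first stage that is led by Apoe, Tyrobp and Fth1 and a second stage that depends on the lipid receptor TREM2 and includes Cst7, Clec7a, Lpl, Itgax and Axl.

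Total counts ran from 9895511 to 12358124 in the 4-month libraries and from 8147240 to 11041219 in the 6-month libraries, with 15709 to 18816 genes detected across the 8. Neither total counts (exact permutation test, two-sided, p = 0.114) nor genes detected (p = 0.229) differed between the ages. The share of counts from ribosomal protein genes was 0.280% at 4 months and 0.421% at 6 months, and that from mitochondrially encoded genes 0.539% and 0.849%. Both had an exact permutation p of 0.0286, about the smallest that 4 against 4 can give, and an adjusted p of 0.0715 over the 5 measures compared. The sorted cell type was checked on its markers: P2ry12, Cx3cr1 and Tmem119 were between 4951 and 21210 CPM (counts scaled to the library total, with TMM factors) in all 8 libraries. Tg 4 months replicate 3 stood apart within its group at some genes.

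Of 12966 genes tested, 3 changed between 4 and 6 months in tg by edgeR's quasi-likelihood test with Benjamini-Hochberg adjustment at 0.05, or 0.0231%. All 3 rose, and all 3 belong to DAM stage 2: Cst7, Clec7a and Lpl. The tool decided how many genes passed: DESeq2 called 428 (3.3%), of which 185 were higher (1.43%) and 243 lower (1.87%) at 6 months. By the edgeR test 1555 genes (12%) had an unadjusted p under 0.05, 5.61% of all genes upward and 6.38% downward. In 4.71% of all genes every 6-month library was above every 4-month library, and in 4.72% every one was below. The list counts below are to be read beside these shares. For each gene below, the age change is the log2 fold change of 6 over 4 months with its standard error (SE), "called" refers to the edgeR test at an adjusted p under 0.05, and DESeq2 values are named as such.

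Cst7 encodes cystatin F, an inhibitor of lysosomal cysteine proteases. Its level in the 4 libraries at 4 months was 12.5, 10.7, 12.2 and 15.4 CPM, and at 6 months it was 197, 129, 176 and 176 CPM. Every 6-month library lay far above every 4-month library. The mean went from 12.7 ± 1.96 to 170 ± 28.7 CPM (SD, n = 4 each). The fold change fitted by edgeR was 13.6, with a 1 SE range of 11.8 to 15.5 (log2 3.76, SE 0.20, edgeR adjusted p = 2e-05). The counts behind these levels were 106 to 151 at 4 months and 1469 to 1820 at 6 months. The rise ranged from log2 3.69 to 3.87 when each of the 8 libraries was left out in turn, and Cst7 was called in all 8 of those fits. With the other groups of the series in the fit, the log2 change of Cst7 was 3.74 with 23 libraries (adjusted p = 0.06) and 3.72 with all 24 (adjusted p = 0.22).

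Clec7a encodes dectin-1, a C-type lectin receptor of myeloid cells. It measured 23.4, 24.7, 17.6 and 22.8 CPM at 4 months and 77.6, 61.7, 97.8 and 99.1 CPM at 6 months, with no overlap. The mean rose from 22.1 ± 3.11 to 84.0 ± 17.9 CPM (SD, n = 4 each), with a fitted fold change of 3.88 (log2 1.96, SE 0.22, edgeR adjusted p = 0.017). Lpl encodes lipoprotein lipase, which releases fatty acids from lipoprotein triglycerides. Its levels of 15.3, 12.6, 12.7 and 14.6 CPM at 4 months and 50.9, 39.1, 57.6 and 63.5 CPM at 6 months did not overlap either. The mean rose from 13.8 ± 1.35 to 52.8 ± 10.5 CPM (SD, n = 4 each), with a fitted fold change of 3.91 (log2 1.97, SE 0.23, edgeR adjusted p = 0.017). For both genes tg 6 months replicate 2 was the lowest of its group. Clec7a and Lpl kept their call in 1 of the 8 fits that left out a library, the one without tg 6 months replicate 2; in the others the log2 change was 1.85 to 2.02 for Clec7a and 1.86 to 2.01 for Lpl, with adjusted p of 0.067 to 0.12 for both.

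**Figure D1:**
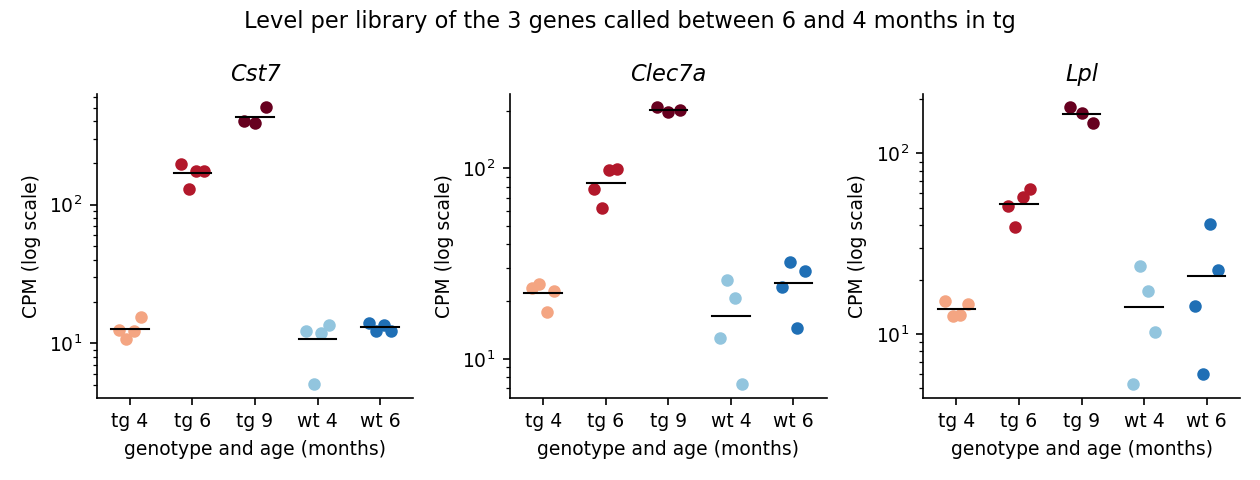
Level of Cst7, Clec7a and Lpl in each library (points, CPM on a log axis) for tg at 4, 6 and 9 months and wt at 4 and 6 months, with the mean of each group as a bar. In tg all 6-month points lie above all 4-month points for the 3 genes, and 1 library of tg at 9 months with 6325 counts is not shown.

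At 9 months, in the 3 tg libraries of usable depth, Cst7 measured 403, 390 and 505 CPM, Clec7a 209, 198 and 202 CPM, and Lpl 180, 168 and 148 CPM. All of these lay above the 6-month range of the same gene. In wt at 9 months Cst7 was at 287, 15.8, 29.5 and 11.5 CPM and Clec7a at 161, 43.6, 33.8 and 22.9 CPM. Lpl there was at 57.9, 25, 20.4 and 16.1 CPM. Thus wt 9 months replicate 1 also lay above the 6-month tg range for Cst7 and Clec7a, and within it for Lpl. The change between 6 and 9 months was not tested here.

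The promoter windows of these genes are shown because the 3 rose together. RefSeq (GRCm38.p6) gave a window for Cst7 and Clec7a, 2 of the 3 genes. That of Cst7 lies at chr2:150570165-150570464 on the plus strand, and that of Clec7a, the first of 2 starts listed, at chr6:129472730-129473029 on the minus strand. Each is printed 5′ to 3′ on the gene's strand, and capitals mark matches, on either strand, to the motifs GGAAGT (an ETS core), GAGGAA (a purine core of the PU.1 type), TGANTCA (AP-1), CACGTG (E-box) and TTGCNNAA (C/EBP).
Cst7: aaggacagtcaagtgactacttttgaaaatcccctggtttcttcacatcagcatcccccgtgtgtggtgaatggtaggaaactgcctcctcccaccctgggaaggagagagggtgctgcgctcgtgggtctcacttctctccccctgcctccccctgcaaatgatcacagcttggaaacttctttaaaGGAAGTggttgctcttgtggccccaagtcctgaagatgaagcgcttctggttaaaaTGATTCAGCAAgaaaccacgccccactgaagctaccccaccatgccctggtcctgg
Clec7a: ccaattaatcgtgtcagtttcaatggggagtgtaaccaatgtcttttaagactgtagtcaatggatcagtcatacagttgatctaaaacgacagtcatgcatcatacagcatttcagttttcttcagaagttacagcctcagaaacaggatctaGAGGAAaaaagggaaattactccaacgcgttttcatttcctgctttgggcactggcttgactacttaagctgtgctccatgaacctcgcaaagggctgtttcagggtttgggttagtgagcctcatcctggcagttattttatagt

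The Cst7 window held GGAAGT beginning at -62 from the start site, TGANTCA at -6 and, overlapping it, TTGCNNAA on the other strand at -3. The Clec7a window held GAGGAA at -96. Among 32851 promoter windows of that length, 23.8% held GGAAGT, 28.3% GAGGAA, 7.81% TGANTCA, 10.8% TTGCNNAA and 7.15% CACGTG. These matches describe letters in the window and were not tested for binding.

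Of the other DAM stage 2 genes none was called by edgeR. Among the 28 tested of the list's 34, 24 were higher and 4 lower at 6 months, against 51.2% of all genes higher and 48.8% lower. An unadjusted p under 0.05 was found for 16 in the upward direction (5.61% of all genes) and for 1 downward (6.38%), Itgb2. In 12 of the 28 every 6-month library was above every 4-month library (4.71% of all genes), and in none was every one below (4.72%; 9.43% of all genes had no overlap in either direction). The median log2 change of the list was 0.80, beside 0.01 over all genes. DESeq2 called 10 members, all higher (1.43% of all genes): Cst7, Clec7a, Lpl, Ank, Ccl3, Ccl4, Ccl6, Capg, Cd52 and Cd63. The 6 members that did not pass the count filter were Gpnmb, Fabp5, Lilrb4a, Atp6v0d2, Dkk2 and Mamdc2, and Atp6v0d2 had no count in the 8 libraries.

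Ank, which encodes a pyrophosphate exporter, came next to the called genes in this list. It was at 18.2, 13, 14.5 and 18.7 CPM at 4 months and at 47.4, 34, 40.6 and 56.3 CPM at 6 months. The groups did not overlap (log2 1.50, SE 0.24, edgeR adjusted p = 0.13, DESeq2 adjusted p = 3.2e-06). Igf1, the gene of a growth factor, was at 4.9, 1.71, 3.3 and 1.43 CPM at 4 months and at 17.3, 8.89, 22.8 and 23.3 CPM at 6 months, again without overlap (log2 2.70, SE 0.50, edgeR adjusted p = 0.16). Spp1, which encodes osteopontin, overlapped between the ages: it was at 13.5, 7.46, 8.76 and 7.54 CPM at 4 months and at 25.7, 5.54, 40.8 and 25.8 CPM at 6 months (log2 1.42, SE 0.51, edgeR adjusted p = 0.33). Tg 6 months replicate 2 was below all 4-month libraries for this gene.

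Receptor genes of the same stage varied between the 6-month libraries. Itgax, which encodes the integrin CD11c, was at 4.14, 8.26, 5.03 and 4.08 CPM at 4 months and at 6.82, 7.39, 19.2 and 37 CPM at 6 months. Axl, the gene of a receptor for apoptotic cells, was at 8.67, 7.76, 15.6 and 5.81 CPM at 4 months and at 18.5, 9.33, 21.3 and 42.2 CPM at 6 months. In both genes the 2 ages overlapped, and tg 6 months replicate 4 was the highest of the 8 (edgeR adjusted p = 0.30 for Itgax and 0.34 for Axl). Without that library the log2 change moved from 1.75 to 1.08 for Itgax and from 1.30 to 0.81 for Axl. Trem2 itself was at 1985, 1934, 1847 and 2100 CPM at 4 months and at 2443, 2179, 2227 and 2600 CPM at 6 months. These did not overlap, and the log2 difference was 0.29 (SE 0.10, edgeR adjusted p = 0.33).

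The chemokine genes of the list pointed the same way. Ccl3 was at 25.7, 27.6, 11.8 and 24.6 CPM at 4 months and at 67.1, 37.8, 74 and 69.5 CPM at 6 months (log2 1.50, SE 0.31, edgeR adjusted p = 0.16). Ccl6 was at 401, 433, 313 and 448 CPM and then at 804, 559, 593 and 692 CPM (log2 0.75, SE 0.15, edgeR adjusted p = 0.16). Neither overlapped between the ages. Cd9, a tetraspanin gene, was 1831 ± 174 CPM at 4 months and 2166 ± 339 CPM at 6 months (SD, n = 4 each; log2 0.27, SE 0.13), with overlap, and the log2 change was 0.03 with scaling within bins of transcript length.

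DAM stage 1 had 9 genes, all tested, of which 8 were higher and 1 was lower at 6 months, and none was called by edgeR. An unadjusted p under 0.05 was found for 6 upward (5.61% of all genes) and for none downward (6.38%), and 4 did not overlap between the ages (9.43%). The list's median log2 change was 0.63. DESeq2 called those 4 as higher (1.43% of all genes): Apoe, Tyrobp, Fth1 and Cstb. Apoe, which encodes the lipid carrier apolipoprotein E, was at 1483, 953, 900 and 1390 CPM at 4 months and at 1879, 2637, 2525 and 3093 CPM at 6 months. The groups did not overlap (log2 1.13, SE 0.21, edgeR adjusted p = 0.16, DESeq2 adjusted p = 3.4e-05). Tyrobp, the gene of the adaptor through which TREM2 signals, was at 735, 716, 664 and 912 CPM and then at 1106, 1072, 1201 and 1371 CPM (log2 0.68, SE 0.14, edgeR adjusted p = 0.16; log2 0.44 with scaling within bins of transcript length). Fth1, the ferritin heavy chain gene, was 1039 ± 67.7 CPM at 4 months and 1578 ± 181 CPM at 6 months (SD, n = 4 each; log2 0.63, SE 0.12). The lysosomal protease genes of the list stood elsewhere: Ctsb had a log2 change of 0.01 (SE 0.12) and Ctsd one of -0.13 (SE 0.13), both with overlapping ages. Without tg 4 months replicate 3 that of Ctsd was -0.01. The direction of Ctsb differed between scalings.

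**Figure D2:**
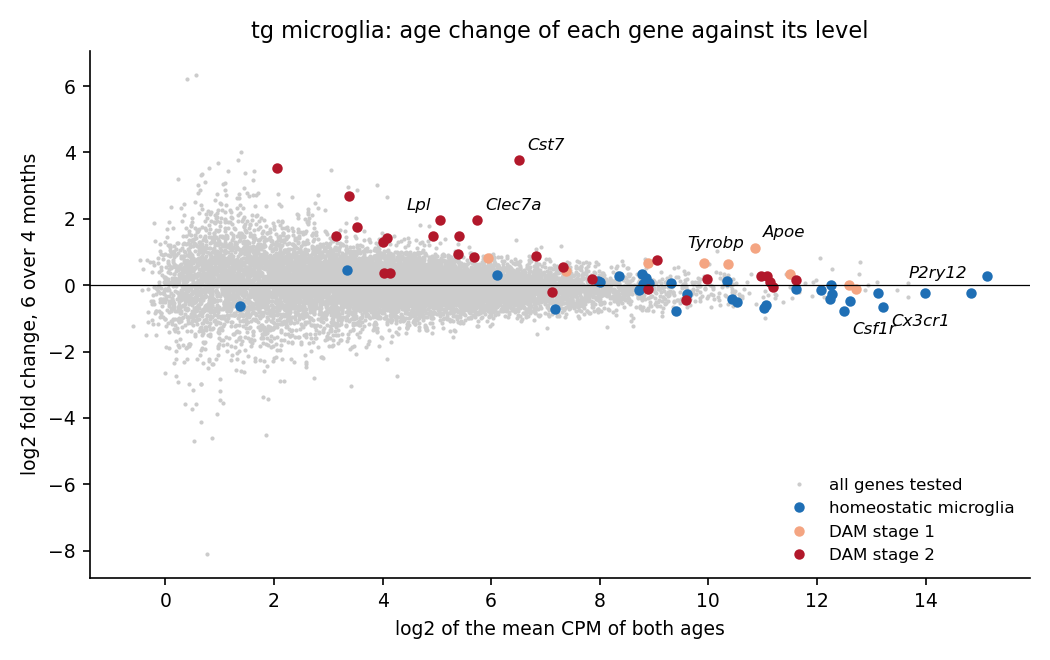
Each tested gene by its mean level (x, log2 of the mean CPM of both ages) and its age change in tg (y, log2 fold change of 6 over 4 months). Cst7, Clec7a and Lpl lie above genes of like level, and the homeostatic genes lie between -0.79 and 0.45.

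Among 32 homeostatic genes, 13 were higher and 19 lower at 6 months, and none was called by edgeR. An unadjusted p under 0.05 was found for 12 downward (6.38% of all genes) and for 2 upward (5.61%), Cst3 and Crybb1. In 8 of the 32 every 6-month library was below every 4-month library (4.72% of all genes), and in none above (4.71%). The median log2 change was -0.18 in tg and -0.19 in wt, and by library totals that of tg was -0.11. DESeq2 called 7, all lower (1.87% of all genes): Adgrg1, Csf1r, Cx3cr1, Entpd1, Golm1, Tgfbr1 and Tmem119.

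Cx3cr1 was at 10593, 11162, 15184 and 9883 CPM at 4 months and at 8138, 7936, 6381 and 6854 CPM at 6 months. The groups did not overlap (log2 -0.65, SE 0.15, edgeR adjusted p = 0.17, DESeq2 adjusted p = 0.0029). Golm1, which encodes a Golgi membrane protein, was at 2642, 2553, 2823 and 2388 CPM and then at 1703, 1851, 1372 and 1822 CPM, without overlap (log2 -0.60, SE 0.12, edgeR adjusted p = 0.16). Tmem119 was at 6942, 6770, 8966 and 6683 CPM and then at 5052, 5600, 4951 and 5240 CPM (log2 -0.47, SE 0.12, edgeR adjusted p = 0.19). P2ry12 did not separate the ages: it was at 18296, 17301, 16553 and 18646 CPM at 4 months and at 21210, 14987, 10004 and 13396 CPM at 6 months (log2 -0.23, SE 0.18, edgeR adjusted p = 0.66). Its log2 change ran from -0.44 without tg 6 months replicate 1 to -0.09 without replicate 3 of that group.

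For some receptor genes of this list, part of the difference rested on 1 library. Csf1r, the receptor for the survival factors CSF1 and IL-34, was at 5562, 6640, 12090 and 5098 CPM at 4 months and at 3650, 4389, 4497 and 4281 CPM at 6 months. Adgrg1, an adhesion receptor gene, was at 665, 717, 1480 and 583 CPM and then at 425, 492, 530 and 504 CPM. Neither overlapped, and tg 4 months replicate 3 was the highest for both. Without it the log2 difference moved from -0.78 to -0.43 for Csf1r and from -0.79 to -0.40 for Adgrg1. Tgfbr1, a receptor gene for TGF-beta, was 2597 ± 445 CPM at 4 months and 1587 ± 377 CPM at 6 months (SD, n = 4 each; log2 -0.69, SE 0.17, edgeR adjusted p = 0.19).

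Ribosomal protein genes, the protein part of the ribosome, were higher at 6 months in 61 of 66 tested, with a median log2 change of 0.58 in tg and 0.32 in wt. None was called by edgeR. An unadjusted p under 0.05 was found for 27 upward (5.61% of all genes) and for none downward (6.38%). In 29 every 6-month library was above every 4-month library (4.71% of all genes), and in 1 below (4.72%). DESeq2 called 14, all higher (1.43% of all genes). Rpl32 was at 171, 177, 159 and 190 CPM at 4 months and at 237, 240, 326 and 291 CPM at 6 months, without overlap (log2 0.68, SE 0.15, edgeR adjusted p = 0.17; log2 0.44 with scaling within bins of transcript length). Many of these genes have near-identical pseudogene copies among which reads can be split, and 64 of 66 tested ribosomal pseudogene symbols were higher too, with a median of 0.77.

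Genes of the respiratory chain went the same way. All 7 mitochondrially encoded genes tested, of 13 listed, were higher, each with an unadjusted p under 0.05 (5.61% of all genes). Their median log2 change was 0.58 in tg and 0.26 in wt. In only 1 of the 7, mt-Co1, was every 6-month library above every 4-month library (4.71% of all genes). The cytochrome oxidase subunit gene mt-Co1 was at 755, 720, 938 and 840 CPM at 4 months and at 1063, 982, 1526 and 1407 CPM at 6 months (log2 0.64, SE 0.17, edgeR adjusted p = 0.20, DESeq2 adjusted p = 0.012). Of 40 nuclear genes of oxidative phosphorylation 36 were higher and 4 lower, with a median of 0.36 in tg and 0.17 in wt. Among these, 11 had an unadjusted p under 0.05 upward (5.61% of all genes) and 1 downward (6.38%). Cox4i1, another oxidase subunit gene, was at 189, 187, 180 and 238 CPM and then at 260, 293, 333 and 315 CPM, without overlap (log2 0.62, SE 0.14, edgeR adjusted p = 0.18; log2 0.39 with scaling within bins of transcript length).

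The age change also moved with transcript length. Genes were split by transcript length into 5 bins of equal size. In the bin of the shortest transcripts (up to 1479 bases) the median log2 change was 0.23 in tg and 0.15 in wt, and 307 genes had all 6-month libraries above all 4-month ones against 62 below. In the other 4 bins, from shorter to longer, the medians in tg were 0.05, -0.05, -0.14 and -0.04. The difference between the longest and the shortest bin within a library (median log2 deviation) was 0.15, 0.14, 0.41 and -0.02 at 4 months and -0.10, -0.16, -0.08 and -0.20 at 6 months, so the ages did not overlap. With libraries scaled within each bin, the median became 0.38 for ribosomal protein genes, 0.35 for mitochondrially encoded genes, 0.27 for nuclear oxidative phosphorylation and 0.62 for DAM stage 2. The same scaling left that of the homeostatic genes at -0.19, and Cst7, Clec7a and Lpl were called under it. The part of length in these results beyond that scaling was not tested.

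**Figure D3:**
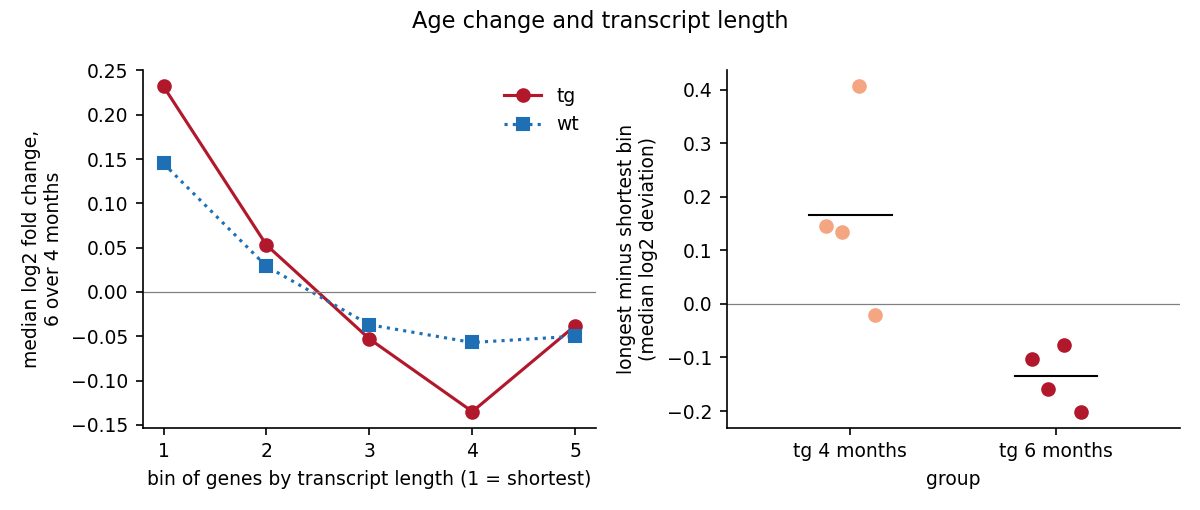
Left, median log2 fold change of 6 over 4 months for each of 5 bins of genes by transcript length (1 is the shortest) in tg (circles) and wt (squares). Right, the longest minus the shortest bin within each tg library (points) with the mean of the group (bar); the 6-month libraries all lie below the 4-month libraries.

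**Figure D4:**
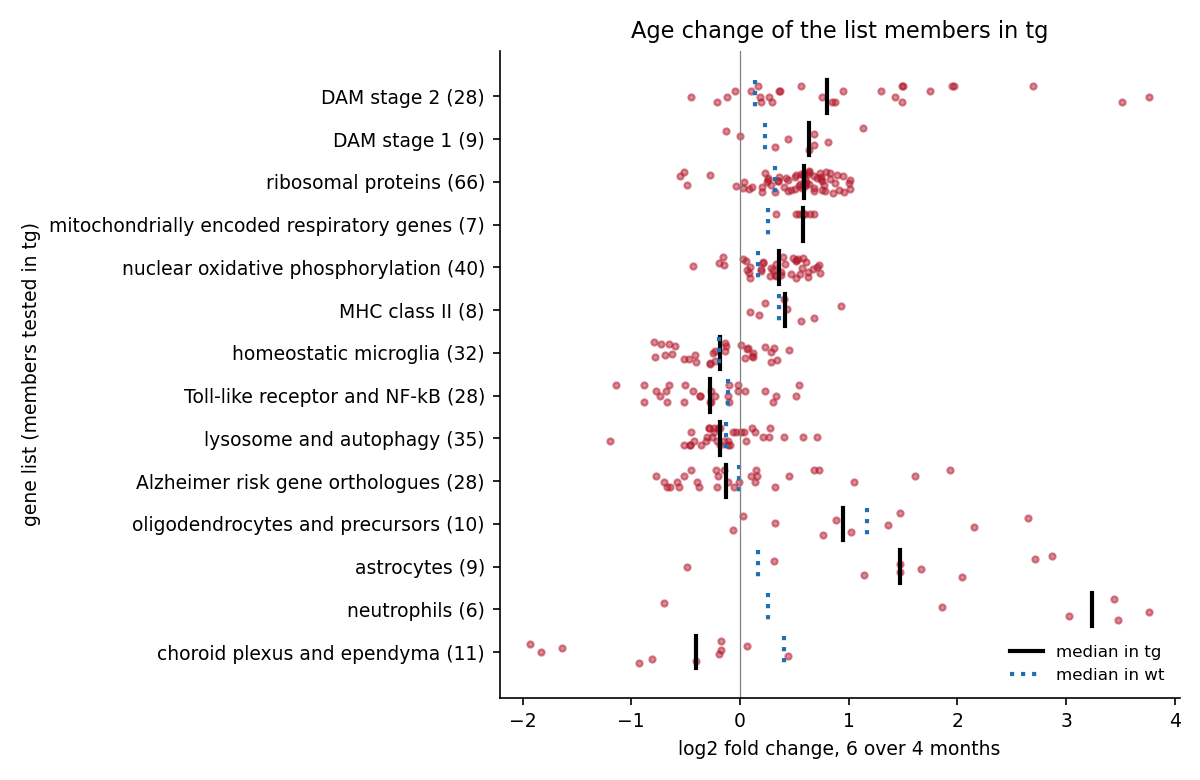
Log2 fold change of 6 over 4 months for every tested member (points) of 14 gene lists in tg, with the median of the list in tg (solid bar) and in wt (dotted bar). DAM stage 2 has the widest upward spread of the microglial lists, and its median is 0.80 in tg and 0.14 in wt.

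Immune signalling genes gave no call by edgeR. Of 28 genes of the Toll-like receptor and NF-kB pathway, which senses microbial and damage signals, 6 were higher and 22 lower at 6 months. An unadjusted p under 0.05 was found for 8 downward (6.38% of all genes) and for 1 upward (5.61%). The median was -0.27 in tg and -0.11 in wt. Tlr4, the lipopolysaccharide receptor gene, was at 237, 195, 233 and 201 CPM at 4 months and at 179, 153, 86.9 and 114 CPM at 6 months, without overlap (log2 -0.68, SE 0.20, edgeR adjusted p = 0.25). Tlr13, a receptor gene for bacterial RNA, was 551 ± 98.9 and then 327 ± 82.6 CPM (SD, n = 4 each; log2 -0.74, SE 0.18, edgeR adjusted p = 0.19). All 8 tested genes of the MHC class II pathway, by which peptides are presented to T cells, were higher. Their median was 0.42 in tg and 0.36 in wt, and none had an unadjusted p under 0.05. With scaling within length bins 6 of the 8 were higher. Of 31 interferon response genes 19 were higher and 12 lower, with 1 at an unadjusted p under 0.05, Ifitm3, which was at 9.8, 9.57, 9.28 and 11.5 CPM and then at 16, 17.2, 24.2 and 25.5 CPM (log2 1.08, SE 0.29, edgeR adjusted p = 0.21).

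Of 35 lysosomal and autophagy genes tested, 11 were higher and 24 lower, 5 with an unadjusted p under 0.05 downward (6.38% of all genes) and 1 upward (5.61%). The median was -0.19 in tg and -0.13 in wt. That of tg was -0.07 with scaling within length bins and -0.11 by library totals. Psap, the precursor of the saposins that help degrade sphingolipids, was at 5407, 5447, 7068 and 5055 CPM at 4 months and at 4350, 4611, 3369 and 4135 CPM at 6 months, without overlap (log2 -0.46, SE 0.14, edgeR adjusted p = 0.25). Lamp1, a lysosomal membrane protein gene, had the opposite sign at 151 ± 36.9 and then 241 ± 40.8 CPM (SD, n = 4 each; log2 0.71, SE 0.20, edgeR adjusted p = 0.22). Its ages overlapped. Among 24 genes of lipid handling 8 were higher and 16 lower, and the hormone-sensitive lipase gene Lipe was 41.5 ± 13.2 and then 18.6 ± 4.78 CPM (log2 -1.13, SE 0.28, edgeR adjusted p = 0.19). Of 19 cholesterol synthesis genes 11 were higher and 8 lower.

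Among 28 orthologues of Alzheimer risk genes 11 were higher and 17 lower, with 6 at an unadjusted p under 0.05 downward (6.38% of all genes) and 1 upward (5.61%). The median was -0.13 in tg and -0.01 in wt. That of tg was -0.05 with scaling within length bins and -0.06 by library totals. Plcg2, which encodes a phospholipase downstream of TREM2, was at 148, 203, 238 and 158 CPM at 4 months and at 91.4, 140, 112 and 109 CPM at 6 months. These did not overlap (log2 -0.69, SE 0.20, edgeR adjusted p = 0.23, DESeq2 adjusted p = 0.023). Adam10, the gene of an alpha-secretase that cleaves the amyloid precursor protein, was at 627, 593, 656 and 600 CPM and then at 538, 487, 313 and 313 CPM, without overlap (log2 -0.56, SE 0.17, edgeR adjusted p = 0.26). Of the construct genes, App was at 112, 148, 121 and 124 CPM at 4 months and at 154, 135, 196 and 98.7 CPM at 6 months, with overlap (log2 0.24, SE 0.20; 0.05 without tg 6 months replicate 3). Prnp was 10.2 ± 1.21 and then 20.1 ± 13.3 CPM (SD, n = 4 each; log2 1.01, SE 0.45, edgeR adjusted p = 0.41). Without tg 6 months replicate 4, the highest at 38.1 CPM, the log2 change of Prnp was 0.48. The sources used here do not state how reads of the human or chimeric transgene sequence were assigned.

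In wt the same comparison called no gene of 12893 by edgeR (0%), with 588 (4.56%) at an unadjusted p under 0.05, and DESeq2 called 18. Cst7 in wt was at 12.2, 5.08, 11.9 and 13.5 CPM at 4 months and at 14, 12.3, 13.5 and 12.2 CPM at 6 months, ranges that overlapped with each other and with tg at 4 months. The age change in tg minus that in wt was called for 1 gene of 14303 (0.00699%), Cst7, with 464 genes (3.24%) at an unadjusted p under 0.05. Its difference was 3.44 on the log2 scale (SE 0.35, edgeR adjusted p = 0.00044), from 3.32 to 3.67 with each of the 16 libraries left out, and it was called each time. By DESeq2 5 genes passed this test, Cst7 among them.

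For Clec7a and Lpl the difference between genotypes was not called: it was 1.35 (SE 0.47) for Clec7a and 1.37 (SE 0.67) for Lpl. The wt age change had a log2 value of 0.59 (SE 0.42) for Clec7a and 0.58 (SE 0.60) for Lpl. For Apoe the difference was 0.49 (SE 0.35), with a wt change of 0.63 (SE 0.26). Igf1 had a difference of 4.31 (SE 1.36) and Ank one of 1.46 (SE 0.57), neither called. That of Igf1 ran from 3.89 to 5.78 with each of the 16 libraries left out, and its wt levels at 6 months were 1.21, 3.39, 0 and 0 CPM. For Spp1 and Axl the wt changes of 1.76 (SE 0.64) and 1.25 (SE 0.82) were near those in tg, and the differences were -0.35 (SE 0.78) and 0.04 (SE 1.01). In 24 of 28 DAM stage 2 genes, 7 of 9 of stage 1 and 11 of 32 homeostatic genes the estimate was higher in tg than in wt. The share over all genes was not computed for these counts, so they are a description only. Cx3cr1 had a difference of -0.38 (SE 0.24), Tmem119 one of -0.24 (SE 0.25) and P2ry12 one of 0.04 (SE 0.24), none called.

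**Figure D5:**
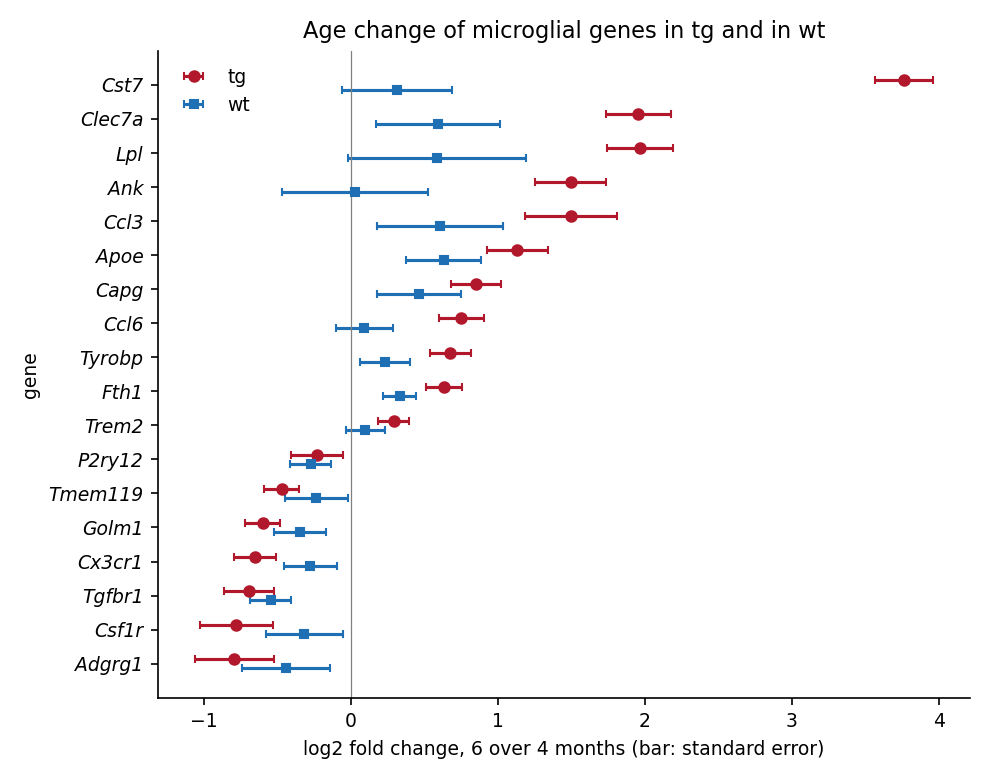
Log2 fold change of 6 over 4 months (x) with its standard error (bar) for 18 microglial genes in tg (circles) and wt (squares). Cst7 lies at 3.76 in tg and 0.32 in wt, while the homeostatic genes lie at or below 0 in both genotypes.

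Markers of other cells were checked beside these results. Oligodendrocyte markers summed to 259 to 326 CPM at 4 months and 307 to 667 CPM at 6 months, with 9 of 10 tested higher at 6 months and Olig2 at 0 in all 8 libraries. The myelin gene Mobp was at 2.83, 4.64, 7.11 and 4.48 CPM and then at 6.72, 19.2, 70.4 and 20.6 CPM, with a log2 change of 2.65 in tg (1.73 without replicate 3 of the 6-month group) and 2.54 in wt. Of 9 astrocyte markers 8 were higher at 6 months, 3 of them with an unadjusted p under 0.05 (5.61% of all genes). The median log2 change of the 9 was 1.48 in tg and 0.17 in wt. Their sum, 429 to 534 and then 342 to 485 CPM, was mostly Slc1a3, the glutamate transporter gene that was the 1 lower marker (log2 -0.49, SE 0.16). Of 6 neutrophil markers 5 were higher, 4 of them with an unadjusted p under 0.05 (5.61% of all genes) and 3 without overlap (4.71%). The median log2 change of the 6 was 3.24 in tg and 0.26 in wt. Only these 6 of the list's 14 passed the count filter. Retnlg, at 0 to 0.917 CPM at 4 months and 3.52 to 5.59 CPM at 6 months, passed it only through the 6-month libraries. Camp, at 0 to 1.22 and then 0.758 to 7.04 CPM, passed it mainly through them. The counts and the median are thus set in part by the filter and are a description only. The sum of the list, 203 to 523 and then 178 to 362 CPM, was mostly the cytokine receptor gene Csf3r. It was the 1 lower marker (log2 -0.70, SE 0.31), and the granule genes Elane and Mpo were at 0. S100a9, a calprotectin gene of neutrophils, was at 3.01, 0, 0 and 2.55 CPM and then at 7.8, 12.1, 9.87 and 30.8 CPM.

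Markers of border-associated macrophages summed to 227 to 331 CPM at 4 months and 204 to 412 CPM at 6 months, with no defining marker at 0. Of the 12 tested 9 were higher, 2 of them with an unadjusted p under 0.05 (5.61% of all genes), and the median was 0.63 in tg and 0.21 in wt. The estimate was higher in tg than in wt for 11 of the 12, a count for which the share over all genes was not computed. Among them Cd209a, a C-type lectin gene, was at 2.26, 3.12, 2.34 and 3.67 CPM and then at 22.7, 8.71, 25.7 and 24.3 CPM, without overlap (log2 2.86, SE 0.42, edgeR adjusted p = 0.13), and it was called without tg 6 months replicate 2 (adjusted p = 0.016). Pf4, a chemokine gene, was at 5.93, 5.85, 4.16 and 6.32 CPM and then at 5.96, 10.3, 15.2 and 14.9 CPM, with overlap, while Mrc1 and Stab1 had log2 changes of -0.14 (SE 0.38) and -0.01 (SE 0.22). Choroid plexus markers summed to 1258 to 1899 CPM at 4 months and to between 207 and 1858 CPM at 6 months, where tg 6 months replicates 1 and 4 were low. With a choroid plexus score as covariate Cst7 kept its call at a log2 change of 3.64, and Clec7a and Lpl did not, at 1.98 and 1.90 (adjusted p = 0.18 for both). The part of other cells in these results was otherwise not tested.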

How the data were processed

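Values were the whole-number counts per gene symbol of the series table deposited by the authors, with 36982 symbols; its columns were matched to samples by name and none was left out. Per the submitters' processing notes, the build was GRCm39 and the tools were HTSeq 0.11.0, TopHat, Picard 2.13.2, cutadapt 2.10, SAMtools 1.10 and FastQC 0.11.9. The role of each tool, the annotation release and the strand setting were not stated there.

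Genes with a CPM of at least 1 in at least 4 of the 8 tg libraries were fitted in R 4.3.3 with edgeR 4.0.16: TMM factors, a robust quasi-likelihood fit of the group means and Benjamini-Hochberg adjustment over all genes tested, called under 0.05. The biological coefficient of variation was 48.1%. The wt comparison used its own 8 libraries, and the difference between genotypes all 16. The SE is the log2 fold change divided by the square root of F. Printed CPM used TMM factors of the 23 libraries with usable depth. The 36 gene lists, the comparison and the named genes were chosen with earlier results of these data known. The rule named called genes, the 3 members per list that ranked first by p, 13 microglial genes, and App and Prnp; some of the genes it named are not reported here; Ank, the chemokine genes Ccl3, Ccl4 and Ccl6, Capg, Cd52, Cd63, Cd9, Cstb, Csf1r, Adgrg1, Entpd1, Ctsb and Ctsd were among those chosen after their values were seen. Alternatives were other scalings and filters, DESeq2 1.42.0, limma-voom (limma 3.58.1), other sets of libraries, a replicate block, a choroid plexus covariate and each library left out. Transcript lengths came from GENCODE for 12660 of the genes tested (97.6%), as the longest transcript of each symbol. The edgeR script was tested on simulated data. No 2 libraries of a group agreed within sampling noise. Counting error is not small for every named gene: at 4 months in tg Igf1 had 14 to 52 counts per library and S100a9 0 to 32. Levels near 3 counts (0.243 to 0.368 CPM) are uncertain.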

Additional observations from a re-analysis of the deposited data

Results flagged for a closer look

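The age change of Cst7 differed between the genotypes: the change in tg minus that in wt was 3.44 on the log2 scale by the test of the difference itself.

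Of 190 groups of 4 values checked (1 gene at 1 age each), 12 had 1 library set apart from the other 3 by Dixon's test. Chance alone sets apart about 1 in 20 of independent groups, and the 12 are near that share. The groups share the same 8 libraries and are not independent, so the share does not tell whether 1 library stood apart. Tg 4 months replicate 3 was the highest of its group for 6 of these genes, at 8874 CPM for the cathepsin gene Ctsd, 8966 for Tmem119, 1480 for Adgrg1, 1273 for the lysosomal peptidase gene Tpp1, 81.2 for the replication gene Fen1 and 96.1 for the myelin gene Mbp. Tg 4 months replicate 2 was the lowest for Ctsb at 5358 CPM. Tg 4 months replicate 4 was the highest for Cox4i1 at 238 CPM and the lowest for the kinase gene Jak1 at 376 CPM. At 6 months, tg replicate 2 was the highest for the nuclear receptor gene Nr1h2 at 76.8 CPM, replicate 3 the lowest for the translation termination gene Gspt1 at 54.7 CPM, and replicate 4 the highest for the calprotectin gene S100a8 at 56.9 CPM. What set these libraries apart was not tested.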

How the results depend on the processing

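Against 3 called genes, all higher, DESeq2 called 428 and limma-voom with quality weights 5. All 24 libraries in 1 fit gave 0 (1438 at an unadjusted p under 0.05) and 23 libraries 0 (1601), while the 16 libraries of both genotypes, the choroid plexus covariate and a limit of 0.01 each gave 1, Cst7. The fit with the replicate number as a block (replicate block) also gave 1, Cst7. In that fit Clec7a and Lpl had an adjusted p of 0.28 each. Same-numbered libraries correlated at 0.103, 0.039, 0.067 and 0.019, and pairs of unlike number at -0.067 to 0.054. Tg 4 months replicates 1, 2 and 3 and every 6-month library correlated best with their own number. Only tg 4 months replicate 4 correlated best with another. The labels do not say whether the numbers pair libraries, and the main fit did not use them. Leaving out each library gave 1 to 4 calls: 4 without tg 6 months replicate 2 and 1 otherwise. Cst7 was not called with all 24 libraries (adjusted p = 0.22) or with 23 (0.06). RLE factors, library totals, both other filters, a fit that was not robust and scaling within length bins (added after seeing the data) each gave 3. In wt DESeq2 called 18, against 0, and for the difference between genotypes 5, against 1. The causes were not tested. DESeq2 gave no adjusted p for Cd209a, Igf1, Itgax, Lgals3 and S100a9, among others of low level.

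By library totals the median of all genes moved from 0.01 to 0.10 on the log2 scale. By that scaling 5 of 10 MHC class I genes were higher instead of 3, and by RLE factors 2 of 8 glucocorticoid response genes instead of 4. Ctsb, near 0, changed sign: -0.004 with RLE factors and DESeq2, -0.001 with filterByExpr, -0.016 without a filter, -0.032 with 24, -0.019 with 23 and -0.013 with 16 libraries, -0.139 with the choroid plexus covariate, and -0.053 to 0.085 with a library left out. The choroid plexus genes Enpp2 (-0.93) and Ttr (-0.18) became 0.237 and 0.84 with that covariate, and Ttr ran from -0.656 to 0.153 with a library left out.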

Other observations

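Of the genes of DNA replication and mitosis, 18 of 29 were higher at 6 months in tg and 11 lower. An unadjusted p under 0.05 was found for 1 upward (5.61% of all genes) and for 4 downward (6.38%). The list summed to 361 to 536 CPM at 4 months and 313 to 392 CPM at 6 months. Fen1, a flap endonuclease gene, was at 49.3, 52.7, 81.2 and 47 CPM at 4 months and at 45, 32.8, 31.5 and 26 CPM at 6 months in tg, without overlap. Its log2 change was -0.75 (SE 0.24, edgeR adjusted p = 0.28), and -0.54 without tg 4 months replicate 3, the highest library. In wt Fen1 was at 71.7, 66.5, 52 and 54.2 CPM and then at 68.6, 99, 98.5 and 82.1 CPM, with a log2 change of 0.53 (SE 0.20), not called.

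Among genes in no list, the smallest p-values after the called genes included Nckap1l and Cyfip1, whose products belong to the WAVE complex of actin assembly. Nckap1l was at 568, 596, 684 and 546 CPM at 4 months and at 376, 363, 292 and 358 CPM at 6 months in tg, without overlap (log2 -0.76, SE 0.12, edgeR adjusted p = 0.13). Cyfip1 was at 1748, 1792, 1858 and 1486 CPM and then at 1294, 1170, 942 and 973 CPM, also without overlap (log2 -0.63, SE 0.12, edgeR adjusted p = 0.16). Stat3 and Jak1, of cytokine signalling, had log2 changes of -0.80 (SE 0.16) and -0.66 (SE 0.14). Gnas, which encodes a stimulatory G protein subunit, was at 71.5, 91.6, 53.9 and 84.6 CPM and then at 155, 145, 174 and 187 CPM (log2 1.16, SE 0.19, edgeR adjusted p = 0.13), and limma-voom called it (adjusted p = 0.048). These genes were chosen after their values were seen.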
